A study of Sus scrofa with 16 samples.

Results

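These were 10 developmental transcription factors of the endocardial cushion and the valve mesenchyme that were measured in cultured pig aortic valve interstitial cells: TBX20, GATA4, GATA6, HAND2, SNAI1, SNAI2, TWIST1, TWIST2, MSX1 and TCF21. They were taken by name from the gene count table, and all 10 of the 10 were found there among 29552 named genes. All 10 passed the filter on low counts, which kept 14530 genes for testing. The cells came from aortic valve leaflets of male and female pigs aged 5 to 6 months. They were kept for 48 hours in Media 199 with 1% fetal bovine serum, penicillin, streptomycin and amphotericin B, which all groups shared. The 4 groups were female plastic, female gel, male plastic and male gel, with 4 libraries each and 16 in all. Plastic was ordinary tissue culture plastic, whose cells the submitters regarded as myofibroblasts. Gel was a PEG-norbornene hydrogel with an elastic modulus of about 5.8 kPa, whose cells they regarded as quiescent fibroblasts. The labels call the replicates biological, and whether leaflets were pooled is not given in the sources used here.

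Valve interstitial cells descend largely from endocardial cells that leave the endothelium and become mesenchyme, a step called the endothelial-to-mesenchymal transition. BMP, TGF-beta and Notch signals from the myocardium and endocardium start this step in mouse and chick embryos, and the SNAI and TWIST factors, MSX1 and the GATA and T-box factors act downstream of them. In adult fibroblasts several of the same genes are switched on again during wound repair and fibrosis, which is why their levels are of interest in valve cells that turn into contractile myofibroblasts.

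Libraries held 16897547 to 27436151 counts, and each factor had between 52 and 2916 counts in every library. Levels are given in CPM, a gene's share of the counts in its library, scaled between libraries by the TMM method. Levels of different genes are not compared, since no transcript lengths were used. The smallest library was male gel 2 (16897547 counts), in which 15476 genes had a count, against 16850 to 18453 in the other 15 libraries. All 12 interstitial cell markers of the list used here were expressed, among them COL1A1 at 8820 to 17500 CPM and VIM at 4830 to 8170 CPM. All 7 myofibroblast markers rose on plastic in both sexes, and their summed level was 31900 to 53000 CPM in female plastic against 8900 to 16700 CPM in female gel, and 42400 to 48900 CPM in male plastic against 9880 to 15400 CPM in male gel. Endothelial markers were present in every group, with 0 of 15 genes at zero in any group. Their summed level was 232 to 652 CPM in female plastic, 194 to 359 CPM in female gel, 220 to 404 CPM in male plastic and 173 to 358 CPM in male gel. Within each sex the sum was highest on both surfaces in female 1, female 4 and male 4, which were set apart with earlier results of these data known. On plastic 3 of the 15 endothelial markers rose in female and 2 in male cells, and 0 fell. Of all 14530 tested genes, 12.7% rose in female and 12.9% in male cells. With the label number as a block, 5 endothelial markers rose in female and 6 in male cells, as did 2104 and 2251 of all tested genes. Cardiac muscle markers summed to 109 to 197 CPM in female plastic against 17.1 to 43.3 CPM in female gel, and to 111 to 179 CPM in male plastic against 18.7 to 28.9 CPM in male gel, with 7 of the 12 in the table under 1 CPM in every library. The giant sarcomere protein gene TTN made up nearly all of this sum, and the other 11 genes together came to 3.54 to 6.17 CPM in female plastic, 1.60 to 3.39 CPM in female gel, 3.28 to 5.75 CPM in male plastic and 1.41 to 2.24 CPM in male gel. Of the 5 tested cardiac markers 2 rose in female and 3 in male cells, and of the 3 tested leukocyte markers 1 rose and 1 fell in each sex. Of the 12 interstitial markers 1 rose and 5 fell in female cells, and 3 rose and 3 fell in male cells. The part of the endothelial transcripts and of TTN in the surface changes given next was not tested. The T-cell marker CD3E and the cardiac troponin TNNT2 were at 0 in all libraries, and the 9 epithelial and epicardial markers in the table were each under 1 CPM in every library. In such bulk samples, fewer cells of a type and less RNA per cell cannot be told apart.

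The first question was which of the factors differed between plastic and gel. SNAI1 and TWIST2 were lower on plastic in cells of both sexes. SNAI2 and TCF21 were lower and MSX1 higher on plastic in male cells, while in female cells their changes of -0.56, -0.45 and 0.30 (log2) did not pass the test. TWIST1, GATA6 and HAND2 were close to level between surfaces, and the changes of TBX20 and GATA4 did not pass the test. In female cells 2 of the 10 factors were called, both lower, where 23.9% of all 14530 tested genes were called in either direction and 11.3% were called lower. In male cells 5 of the 10 were called, 4 lower and 1 higher, where 25.8% of all tested genes were called, 12.9% in each direction. SNAI1 and TWIST2 were called lower in both sexes, as were 7.27% of all tested genes, and 0 of the 10 were called higher in both, against 9.24%. The median change of the 10 was -0.14 in female and -0.01 in male cells (log2), against -0.04 and -0.03 over all tested genes.

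**Figure D1:**
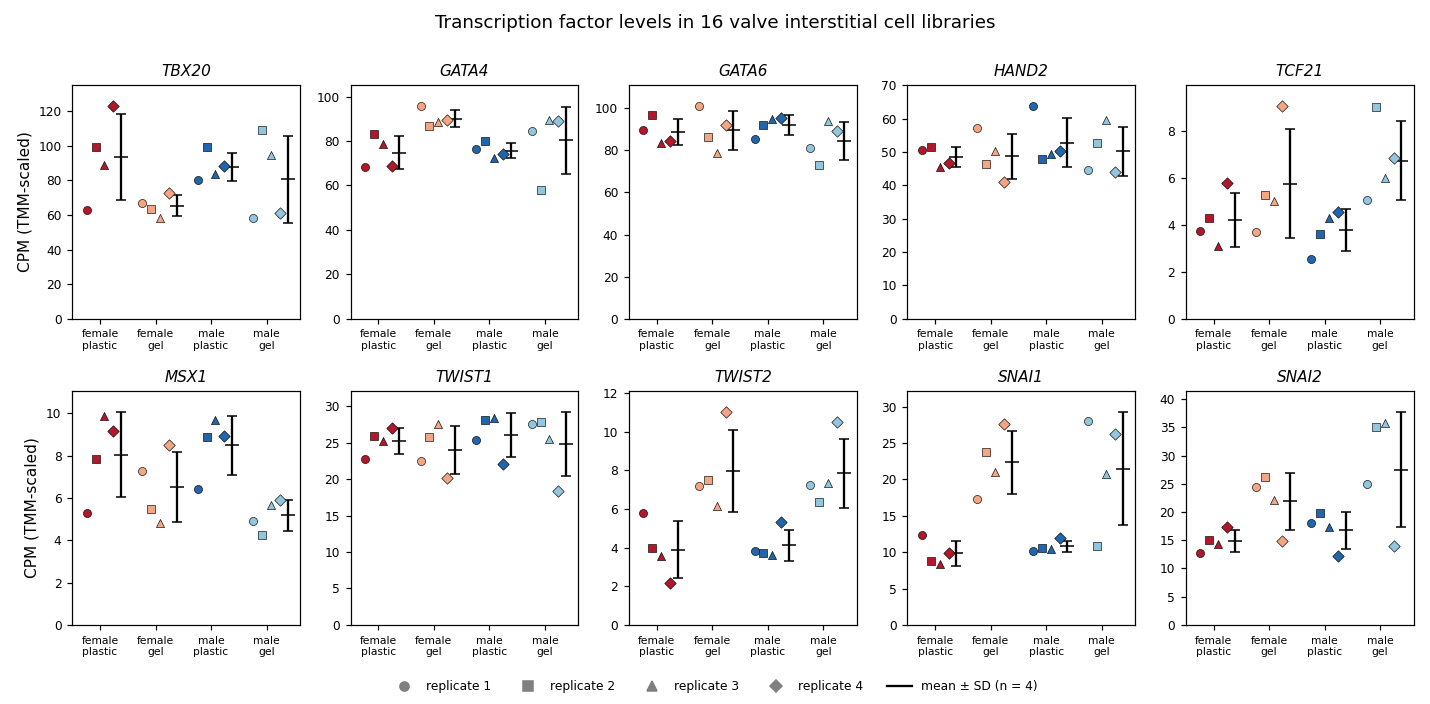
Level of each factor in CPM (y axis, from 0) in every library of the 4 groups (x axis); symbols mark the replicate number and bars the mean ± SD of 4 libraries. SNAI1 and TWIST2 sit lower on plastic than on gel, with male gel 2 as the low SNAI1 library among gel libraries at 10.8 CPM.

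SNAI1 (snail; chromosome 17, 51546446 to 51552498 on Sscrofa11.1) and SNAI2 (slug; chromosome 4, 79264880 to 79268475) are zinc finger repressors that silence cadherin genes when cells leave an epithelium or endothelium. SNAI1 was at 12.3, 8.84, 8.40 and 9.83 CPM in female plastic 1 to 4, against 17.3, 23.8, 21.0 and 27.6 CPM in female gel 1 to 4. All 4 female plastic libraries lay below all 4 female gel libraries. Its log2 change was -1.19 (SE 0.23, adjusted p = 0.0012 by edgeR's quasi-likelihood test), so that plastic held 43.9% of the gel level. In male plastic 1 to 4 it was at 10.2, 10.6, 10.5 and 11.9 CPM, against 28.1, 10.8, 20.8 and 26.3 CPM in male gel 1 to 4. The male groups overlapped through male gel 2, which lay within the range of male plastic. The male change was -1 (SE 0.23, adjusted p = 0.00425), or 50.1% of the gel level. Without male gel 2 and female plastic 4 it was -1.21 (adjusted p = 0.000105), and both calls held under all 25 alternatives, with adjusted p from 1.19e-05 to 0.0206 in female and from 6.61e-05 to 0.0318 in male cells.

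SNAI2 was at 12.7, 15.1, 14.4 and 17.3 CPM in female plastic 1 to 4, against 24.5, 26.2, 22.2 and 14.9 CPM in female gel 1 to 4. It was at 18.0, 19.8, 17.3 and 12.2 CPM in male plastic 1 to 4, against 25, 35.0, 35.8 and 14.0 CPM in male gel 1 to 4. Replicate 4 was the low gel library in both sexes, and both pairs of groups overlapped through it. The change was -0.56 in female cells (SE 0.25, adjusted p = 0.116, 95% interval -1.09 to -0.04) and -0.71 in male cells (SE 0.25, adjusted p = 0.0456). The male call stood close to the threshold. It ended under limma-voom (-0.64, adjusted p = 0.091), with only the male libraries in the fit (-0.70, adjusted p = 0.0996), and in 13 of the 16 fits that left out a single library, at adjusted p from 0.0503 without female gel 2 to 0.136 without male gel 3. It also ended without male gel 2 and female plastic 4 together (-0.57, adjusted p = 0.121). It held without male gel 4, female gel 4 or female plastic 4 alone. With the label number as a block the male call also held (-0.64, SE 0.19, adjusted p = 0.0228). The female change in that fit was -0.54 (SE 0.19, adjusted p = 0.0521). The female change passed the test without male gel 4 (-0.56, adjusted p = 0.0401), with only the female libraries in the fit (-0.56, adjusted p = 0.0446) and without male 4, female 1 and female 4 (-0.70, adjusted p = 0.0324).

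TWIST1 (chromosome 9, 88286911 to 88290131) and TWIST2 (also called Dermo1; chromosome 15, 138228640 to 138276341) are paralogous basic helix-loop-helix factors of mesenchyme. TWIST1 promotes growth and migration of cushion mesenchyme in chick and mouse. TWIST2 was at 5.77, 3.98, 3.56 and 2.19 CPM in female plastic 1 to 4, against 7.17, 7.52, 6.15 and 11.0 CPM in female gel 1 to 4. In male plastic 1 to 4 it was at 3.82, 3.72, 3.59 and 5.33 CPM, against 7.23, 6.38, 7.34 and 10.5 CPM in male gel 1 to 4. The plastic libraries lay below the gel libraries without overlap in each sex. The change was -1.04 in female cells (SE 0.26, adjusted p = 0.00849), or 48.7% of the gel level, and -0.93 in male cells (SE 0.26, adjusted p = 0.0158), or 52.5%. Removing male gel 4, the highest male library, ended the male call (-0.76, adjusted p = 0.0528).

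TWIST1 moved little between surfaces. It averaged 25.2 ± 1.78 CPM in female plastic and 24.0 ± 3.33 CPM in female gel, and 26.0 ± 2.99 CPM in male plastic and 24.8 ± 4.36 CPM in male gel (SD, n = 4 each). The groups overlapped in both sexes, with a log2 change of 0.07 in each (SE 0.14; 95% interval -0.22 to 0.36 in female and -0.23 to 0.36 in male cells). The log2 ratio of TWIST1 to TWIST2 within a library was therefore higher on plastic. It averaged 2.78 ± 0.67 in female plastic and 1.62 ± 0.54 in female gel, and 2.67 ± 0.43 in male plastic and 1.67 ± 0.58 in male gel. It was higher on plastic in 8 of 8 pairs of libraries with the same sex and label number, by 0.33 (female 1) to 2.75 (female 4). The ratio of SNAI1 to SNAI2 was lower on plastic in 5 of 8 such pairs, with differences from -1.71 (female 4) to 0.79 (male 2). No test was run on the ratios.

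MSX1 (chromosome 8, 5628381 to 5632375) is a homeobox factor that, with MSX2, acts in BMP-driven cushion formation in the mouse. It was at 6.43, 8.88, 9.67 and 8.92 CPM in male plastic 1 to 4, against 4.91, 4.24, 5.66 and 5.88 CPM in male gel 1 to 4. All 4 male plastic libraries lay above all 4 male gel libraries, with a log2 change of 0.71 (SE 0.22, adjusted p = 0.0244). Removing any of numbers 1 and 2 of male gel or numbers 2, 3 and 4 of male plastic ended that call. The adjusted p was then 0.0533 (male gel 1 removed) to 0.072 (male plastic 3 removed). Without male gel 2 and female plastic 4 the male change of MSX1 was 0.63 (adjusted p = 0.0568). In female plastic 1 to 4 it was at 5.28, 7.86, 9.85 and 9.15 CPM, against 7.28, 5.47, 4.82 and 8.48 CPM in female gel 1 to 4. The female groups overlapped, and number 1 was the pair in which plastic was lower. The female change was 0.30 (SE 0.22, adjusted p = 0.339, 95% interval -0.15 to 0.76). It was 0.18 without female gel 3, 0.19 without female plastic 3, 0.46 without female gel 4 and 0.47 without female plastic 1. Without male 4, female 1 and female 4 it was 0.80 (adjusted p = 0.0586).

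TCF21 (chromosome 1, 29975280 to 29978273) is a basic helix-loop-helix factor that directs epicardial cells toward the fibroblast fate in the mouse. It was at 2.56, 3.63, 4.3 and 4.56 CPM in male plastic 1 to 4, against 5.05, 9.04, 6.00 and 6.87 CPM in male gel 1 to 4. The male groups did not overlap, and male gel 2 was the highest library. The change was -0.83 (SE 0.28, adjusted p = 0.0399), and the call ended under limma-voom (adjusted p = 0.0573) and with no filter on low counts (adjusted p = 0.0512). It also ended on removing any of numbers 2, 3 and 4 of male gel or numbers 1, 2 and 3 of male plastic, with adjusted p of 0.0511 (male gel 3 removed) to 0.117 (male plastic 1 removed). Without male gel 2 and female plastic 4 the male call ended as well (-0.66, adjusted p = 0.0894). With the label number as a block the male call held (-0.83, SE 0.19, adjusted p = 0.0064). It also held without male 4, female 1 and female 4 (-0.91, adjusted p = 0.0354). Female plastic 1 to 4 had 3.73, 4.3, 3.08 and 5.78 CPM, against 3.68, 5.28, 5.03 and 9.06 CPM in female gel 1 to 4. These groups overlapped, with a change of -0.45 (SE 0.28, adjusted p = 0.275, 95% interval -1.04 to 0.15). Without female gel 4, the highest female library, it was -0.14.

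TBX20 (chromosome 18, 38635603 to 38681690) is a T-box factor of the heart that supports proliferation of cushion mesenchyme in the mouse. It was at 62.8, 99.5, 88.7 and 123 CPM in female plastic 1 to 4, against 67.0, 63.7, 58.3 and 72.7 CPM in female gel 1 to 4. Female plastic 1 lay within the gel range and the other 3 female plastic libraries lay above it. The change was 0.51 (SE 0.20, adjusted p = 0.0748). With the label number as a block it was 0.48 (adjusted p = 0.0397), DESeq2 gave 0.54 (adjusted p = 0.0443), and it also passed without female plastic 1 (0.68, adjusted p = 0.0158) or male gel 2 (0.51, adjusted p = 0.0414). In male plastic 1 to 4 TBX20 was at 80.3, 99.1, 83.7 and 88.5 CPM, against 58.2, 109, 94.7 and 60.9 CPM in male gel 1 to 4. Male gel 2 and 3 were high and male gel 1 and 4 low, and male plastic lay inside their range. The male change was 0.13 (SE 0.20, adjusted p = 0.688).

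GATA4 (chromosome 14, 14858470 to 14938156) and GATA6 (chromosome 6, 107282709 to 107314725) are zinc finger factors of the cardiac lineages, and GATA4 in the endothelium is needed for cushion mesenchyme in the mouse. GATA4 was at 68.3, 83.3, 78.5 and 68.7 CPM in female plastic 1 to 4, against 95.7, 86.6, 88.5 and 89.5 CPM in female gel 1 to 4. The female groups did not overlap, yet the change of -0.27 (SE 0.12) had an adjusted p of 0.111. In male plastic 1 to 4 it was at 76.2, 80.1, 72.3 and 74.3 CPM, against 84.6, 58.1, 89.5 and 89.1 CPM in male gel 1 to 4. Male gel 2 was the lowest of all 16 libraries and the other 3 male gel libraries lay above all male plastic libraries. The male change was -0.09 (SE 0.12, adjusted p = 0.641). Without male gel 2 the female change was -0.27 (adjusted p = 0.0115), and without male 4, female 1 and female 4 it was -0.10 (adjusted p = 0.80). Without male gel 2 and female plastic 4 the change was -0.23 (SE 0.07, adjusted p = 0.0255) in female and -0.21 (SE 0.07, adjusted p = 0.0381) in male cells.

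GATA6 averaged 88.6 ± 6.24 CPM in female plastic and 89.5 ± 9.19 CPM in female gel, and 92 ± 4.74 CPM in male plastic and 84.4 ± 9.22 CPM in male gel. Its groups overlapped in both sexes, with changes of -0.01 (95% interval -0.22 to 0.19) in female and 0.12 (95% interval -0.08 to 0.33) in male cells. HAND2 (chromosome 14, 16460089 to 16462979), a basic helix-loop-helix factor of the outflow tract, averaged 48.6 ± 2.98 CPM in female plastic and 48.7 ± 6.86 CPM in female gel. It averaged 52.8 ± 7.38 CPM in male plastic and 50.2 ± 7.36 CPM in male gel. Its changes were 0.00 (95% interval -0.27 to 0.26) and 0.07 (95% interval -0.19 to 0.34).

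**Figure D2:**
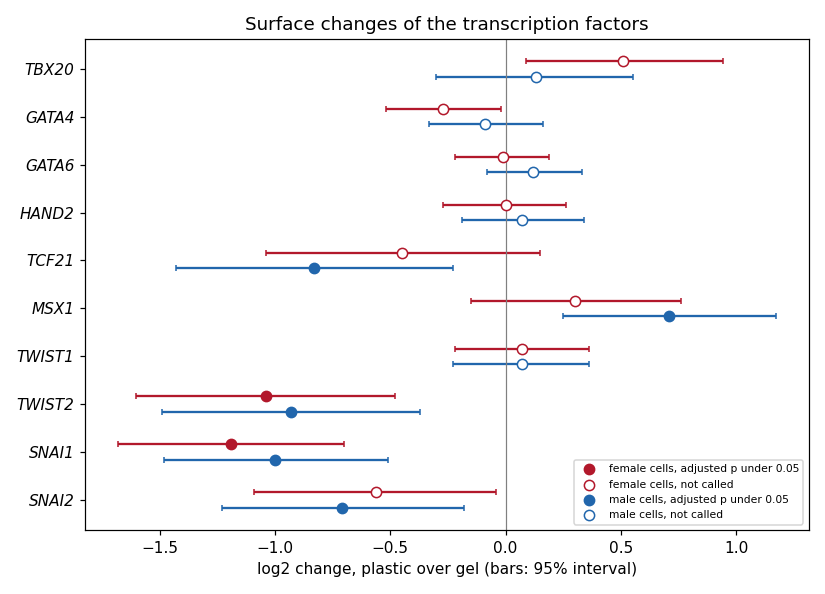
Log2 change of each factor, plastic over gel (x axis), in female (red) and male (blue) cells with 95% intervals; filled symbols passed an adjusted p of 0.05. SNAI1 and TWIST2 were called lower in both sexes, and TWIST1, GATA6 and HAND2 lay near 0.

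Libraries of the same sex and label number were then set side by side, each number being taken as 1 animal on both surfaces. SNAI1 and TWIST2 were lower on plastic in 8 of 8 pairs. Of all tested genes, 27.5% moved one way in all 8 pairs and 13.3% were lower in all 8. The SNAI1 differences ran from -1.48 (female 4) to -0.03 (male 2) on the log2 scale, and those of TWIST2 from -2.29 (female 4) to -0.31 (female 1). SNAI2 was lower in 7 of 8 pairs, all but female 4 (0.22). GATA4 was lower in 7 of 8, all but male 2 (0.46), and TCF21 in 7 of 8, all but female 1 (0.02). MSX1 was higher in 7 of 8, all but female 1 (-0.46). TBX20 was higher in 5, GATA6 and TWIST1 in 6 and HAND2 in 4 of the 8 pairs. Groups did not overlap for 3 of the 10 factors in female cells (SNAI1, TWIST2 and GATA4, where 27.7% of all tested genes did not overlap) and for 3 in male cells (TWIST2, TCF21 and MSX1, against 28.9%).

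**Figure D3:**
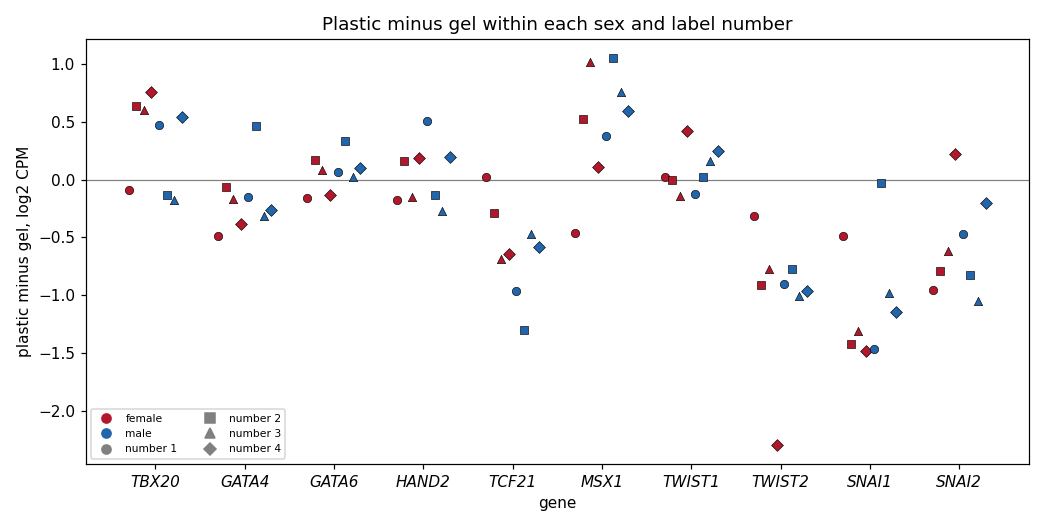
Plastic minus gel in log2 CPM (y axis) for each factor (x axis) in the 8 pairs of libraries that share a sex and label number; colour gives the sex and the symbol the number. All 8 points of SNAI1 and TWIST2 lie below 0, with male 2 at -0.03 for SNAI1.

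The next question was whether the sexes differed. For the difference of the surface changes, female minus male, 0 of the 10 factors were called, as were 0 of all tested genes (0%) by edgeR, DESeq2 and limma-voom. At an unadjusted p under 0.05 edgeR had 0 of the 10 and 633 of all tested genes. The widest gaps were those of MSX1 (-0.41, 95% interval -1.05 to 0.24), TBX20 (0.39, -0.21 to 0.99) and TCF21 (0.39, -0.46 to 1.23). These intervals include no difference and also differences as large as the surface changes themselves, so that a call in one sex alone does not set the sexes apart.

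Female against male levels gave 0 called factors on gel, where 0.103% of all tested genes were called, and 0 on plastic, where 0.124% were. DESeq2 and limma-voom also called 0 factors, and 0 had an unadjusted p under 0.05 on either surface. Female and male groups overlapped for all 10 factors on both surfaces, while 2.03% of all tested genes did not overlap on gel and 2.85% on plastic. On gel the changes ran from -0.32 for SNAI2 (95% interval -0.84 to 0.19) and -0.30 for TBX20 (-0.72 to 0.13) to 0.33 for MSX1 (-0.13 to 0.79). On plastic they ran from -0.18 for SNAI2 (-0.71 to 0.35) to 0.16 for TCF21 (-0.44 to 0.77). For SNAI1 the difference was 0.06 on gel (-0.42 to 0.53) and -0.13 on plastic (-0.62 to 0.36).

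Surface accounted for 72.0% of the variance of SNAI1 in log2 CPM over the 16 libraries and for 68.0% of that of TWIST2. It accounted for 38.9% in SNAI2, 41.2% in MSX1 and 40.2% in TCF21. For TWIST1 and GATA6, surface accounted for 4.63% and 6.24%, and the animal within a sex for 69.2% and 53.8%. Sex accounted for 0.00276% (SNAI1) to 5.65% (HAND2). The animal share is taken over 8 animals and the shares of surface and sex over a single contrast each, so their sizes are not compared.

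The paralogs were set against each other by their deviations from the group means over 16 libraries of 8 animals. These libraries share a scaling and, in pairs, an animal, so the values are descriptions. TWIST1 and TWIST2 deviated in opposite directions (Pearson r = -0.78, Spearman rho = -0.79), with r = -0.77 among plastic and -0.90 among gel libraries. Without the libraries with the most extreme TWIST1, male gel 4 and female gel 4, r was -0.71, and without male 4, female 1 and female 4 it was also -0.71. For each r without libraries, deviations were still taken from the means of the whole groups, so the libraries left out still entered those means. SNAI1 and SNAI2 had r = -0.61 (rho = -0.51), and TWIST1 and SNAI2 had r = 0.83 (rho = 0.59). For TWIST1 and SNAI2, r was 0.13 without the 3 animals with the highest endothelial sums, with the group means again those of all libraries. The libraries of these 3 animals did not all deviate alike. In male 4, SNAI2 and TWIST1 were the lowest of their groups on both surfaces, at 12.2 and 22.0 CPM in male plastic 4 and at 14.0 and 18.4 CPM in male gel 4. TWIST2 was the highest of its group there, at 5.33 CPM in male plastic 4 and 10.5 CPM in male gel 4. Female gel 4 and female plastic 1 showed the same pattern as male 4. SNAI2 (14.9 and 12.7 CPM) and TWIST1 (20.2 and 22.8 CPM) were the lowest of their groups there. TWIST2 was the highest, at 11.0 and 5.77 CPM. Female gel 1 was at neither end of its group for SNAI2, TWIST1 or TWIST2. Female plastic 4 ran the opposite way, with the highest SNAI2 (17.3 CPM) and TWIST1 (27.0 CPM) and the lowest TWIST2 (2.19 CPM) of its group. Endothelial markers summed to 404 CPM in male plastic 4 and 358 CPM in male gel 4, against 220 to 313 CPM in the other male plastic and 173 to 226 CPM in the other male gel libraries, and they summed to 526 CPM in female plastic 4, against 232 to 652 CPM over all female plastic libraries. Without male 4, female 1 and female 4, the surface change of SNAI1 was -1.36 (adjusted p = 0.0206) in female and -0.93 (adjusted p = 0.0318) in male cells, and that of TWIST2 was -0.84 (adjusted p = 0.0206) and -0.90 (adjusted p = 0.00336).

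**Figure D4:**
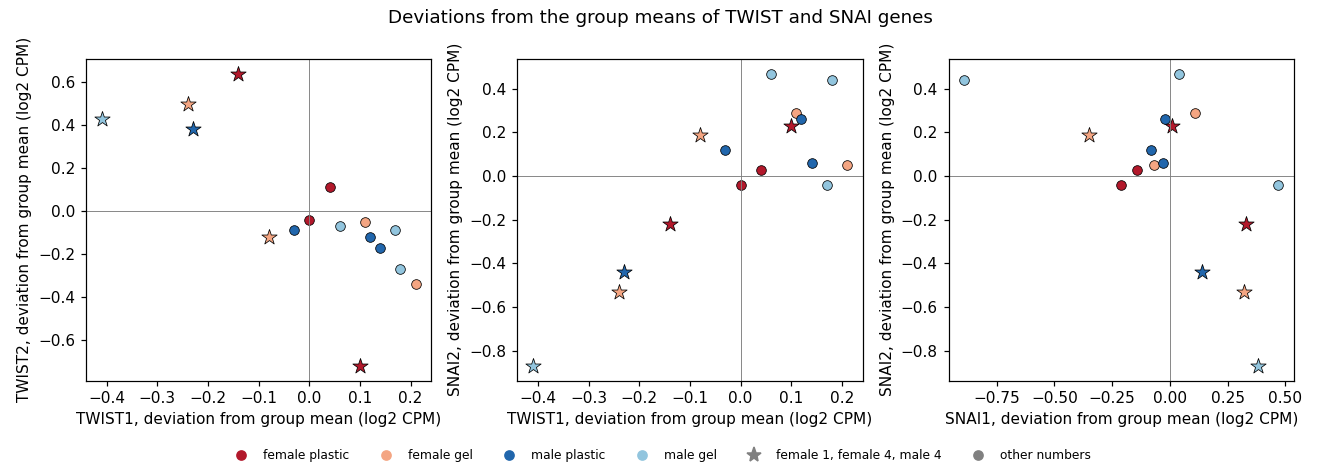
Deviation of each library from its group mean in log2 CPM for 3 pairs of genes; colours give the 4 groups, and stars mark the libraries of female 1, female 4 and male 4. TWIST1 and TWIST2 run in opposite directions (r = -0.78), and the pair TWIST1 and SNAI2 rises together mainly through the starred libraries.

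Genes around the factors were described from lists chosen with earlier results of these data known. Of 40 sister factors, that is, other transcription factors of cushion, valve or mesenchyme, 35 were tested. In female cells 6 rose and 9 fell on plastic, and in male cells 7 rose and 10 fell, with list medians of -0.18 and -0.06. Beside this and the next lists, 12.7% of all tested genes rose and 11.3% fell in female cells, and 12.9% moved each way in male cells. FOXC2, a forkhead factor of vessel valves, rose by 0.96 (SE 0.13, adjusted p = 3.92e-05) in female and 1.23 (SE 0.13, adjusted p = 4.06e-06) in male cells. OSR1, an odd-skipped factor of connective tissue, averaged 28.5 ± 4.82 CPM in female plastic against 14.8 ± 1.17 CPM in female gel, and FOXP1 rose by 0.77 (SE 0.12) in female and 0.55 (SE 0.12) in male cells. The male change of OSR1 was 0.96 (SE 0.14). SOX9, which valve mesenchyme shares with cartilage, was at 32.6 ± 7.01 CPM in female plastic against 81.8 ± 13.8 CPM in female gel, a change of -1.33 (SE 0.16). Male cells had a SOX9 change of -1.56 (SE 0.16). SOX4 fell to 116 ± 27.5 CPM in female plastic, against 202 ± 11.6 CPM in female gel, and to 114 ± 10.3 CPM in male plastic, against 229 ± 20.5 CPM in male gel. MEIS2, a homeobox cofactor, changed by -0.79 (SE 0.12) in female and -1.09 (SE 0.12) in male cells.

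Of 20 partners, the E-proteins, ID proteins and cofactors that bind the factors or their dimers, all 20 were tested, and 5 rose and 6 fell in female and 3 rose and 7 fell in male cells, with medians of -0.15 and -0.16. ID proteins hold E-proteins away from basic helix-loop-helix factors such as TWIST1, HAND2 and TCF21. ID1 averaged 4.65 ± 1.01 CPM in female plastic against 67.5 ± 10.3 CPM in female gel (log2 change -3.86, SE 0.27, adjusted p = 8.22e-08), and 7.14 ± 2.55 CPM in male plastic against 50.9 ± 15.4 CPM in male gel. ID2 changed by -1.56 (SE 0.16) in female and -1.38 (SE 0.16) in male cells. ID4 rose by 1.80 (SE 0.30) in female and 1.45 (SE 0.30) in male cells, and was at 153 ± 63.9 CPM in female plastic against 44.0 ± 8.41 CPM in female gel. TCF3, the E-protein E2A, changed by -0.48 (SE 0.10) in female and -0.35 (SE 0.10) in male cells. ZFPM2, the GATA4 cofactor also called FOG2, rose by 1.22 (SE 0.23, adjusted p = 0.000929) in female and 0.67 (SE 0.23, adjusted p = 0.0391) in male cells. Removing any of numbers 1 and 4 of male gel or numbers 2, 3 and 4 of male plastic ended its male call, with adjusted p of 0.0587 (male plastic 2 removed) to 0.111 (male plastic 3 removed). LOXL2, an oxidase that binds SNAI1 in human cells, changed by -0.72 (SE 0.16, adjusted p = 0.00271) in male cells. In female cells its change was -0.53 (SE 0.16, adjusted p = 0.0203).

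Of 35 inducing signals, 30 were tested, and 10 rose and 6 fell in each sex, with medians of 0.04 in female and 0.03 in male cells. TGFB2 and TGFB3, TGF-beta ligands of cushion formation, rose by 2.04 (SE 0.19) and 2.40 (SE 0.24) in female cells and by 1.75 (SE 0.19) and 2.60 (SE 0.25) in male cells. The Notch ligand JAG1 averaged 202 ± 29.1 CPM in female plastic against 76.7 ± 10.2 CPM in female gel. In male cells JAG1 rose by 1.62 (SE 0.15). The TGF-beta co-receptor TGFBR3 changed by -1.47 (SE 0.30) in female and -1.66 (SE 0.30) in male cells. AXIN2, a WNT target and inhibitor, changed by -1.09 (SE 0.13) in female and -1.06 (SE 0.13) in male cells. The receptors EGFR (-0.57, SE 0.09) and ERBB3 (-2.86, SE 0.53) fell in female cells, where ERBB3 was at 0.395 ± 0.269 CPM on plastic against 2.86 ± 1.16 CPM on gel. In male cells EGFR changed by -0.49 (SE 0.09) and ERBB3 by -2.93 (SE 0.53).

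Of 26 genes listed as targets of the factors or as readouts of the mesenchymal transition, 17 were tested, and 8 rose and 3 fell in each sex, with medians of 0.47 in female and 0.45 in male cells. CDH2, the cadherin of mesenchymal cells, averaged 341 ± 66.6 CPM in female plastic against 77.9 ± 15.8 CPM in female gel, and 308 ± 20.3 CPM in male plastic against 82.6 ± 14.4 CPM in male gel. The matrix protein FN1 rose by 0.61 (SE 0.09) and the matricellular TNC by 1.66 (SE 0.26) in female cells. In male cells FN1 rose by 0.56 (SE 0.09) and TNC by 1.42 (SE 0.26). VCAN, the proteoglycan of cushion jelly, changed by -1.51 (SE 0.24) in female and -1.83 (SE 0.24) in male cells, MMP2 by -0.85 (SE 0.16) and -0.86 (SE 0.16), and POSTN by -2.27 (SE 0.63) and -2.36 (SE 0.63). The female POSTN call was lost without female gel 1 (-1.34, adjusted p = 0.0853). CDH1 (E-cadherin), the classic gene repressed by SNAI1, was at 0.0467 CPM or less in every library and was not tested. CDH5 (VE-cadherin), the endothelial cadherin that SNAI factors repress, was higher on plastic in 8 of 8 pairs of the same sex and label number, where 14.2% of all tested genes were. It was at 174, 32.1, 24.1 and 88.8 CPM in female plastic 1 to 4, against 20.3, 9.45, 6.75 and 47.1 CPM in female gel 1 to 4. In male plastic 1 to 4 it was at 23.5, 20.9, 42.3 and 87.9 CPM, against 7.5, 4.97, 11.2 and 44.8 CPM in male gel 1 to 4. The groups overlapped in both sexes, and the fit without a block gave changes of 1.93 (SE 0.78, adjusted p = 0.0853) in female and 1.35 (SE 0.77, adjusted p = 0.216) in male cells. With the label number as a block, a fit added after seeing the data, CDH5 was called higher on plastic in both sexes, by 1.90 (SE 0.29, adjusted p = 0.000434) in female and 1.62 (SE 0.29, adjusted p = 0.00117) in male cells. Without a block, removing male gel 4 alone also gave a call in both sexes (1.93, adjusted p = 0.0496 in female and 2.46, adjusted p = 0.0336 in male cells), as did removing female gel 4 in female cells (2.71, adjusted p = 0.0334). The other fits that left out a single library gave no call. The smallest changes among them were 1.22 (adjusted p = 0.286) in female cells without female plastic 1 and 0.76 (adjusted p = 0.547) in male cells without male plastic 4. Without male 4, female 1 and female 4, CDH5 was called in both sexes (1.81, adjusted p = 0.0129 in female and 1.87, adjusted p = 0.00234 in male cells). Of the 25 alternatives, 4 gave a call in female and 3 in male cells, and the rest gave none. The endothelial sum, of which CDH5 is a member, was higher on plastic in the same 8 of 8 pairs. ERG had the highest mean of these markers in every group. It averaged 182 CPM in female plastic against 110 CPM in female gel, and 148 CPM in male plastic against 110 CPM in male gel. PECAM1 and VWF had lower means on plastic in both sexes. PECAM1 averaged 62.1 against 69.3 CPM in female and 37.7 against 55.2 CPM in male cells.

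**Figure D5:**
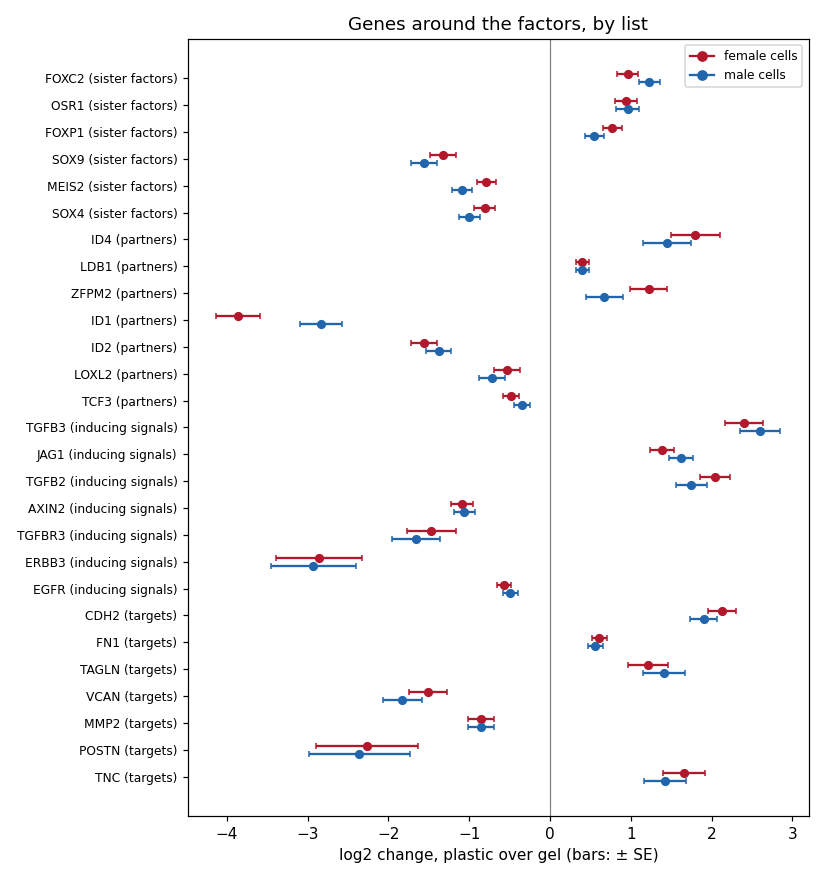
Log2 change, plastic over gel (x axis, bars ± SE), of the list genes that the naming rule gave, in female (red) and male (blue) cells; each gene's list is in brackets. All of the genes drawn passed the test in both sexes, and each moved the same way in both.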

How the data were processed

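The authors' deposited table holds raw counts per gene for 16 polyA RNA libraries, made with an RNeasy Micro kit and a KAPA mRNA HyperPrep kit, per the labels. Per the submitters' processing notes, FastQC 0.11.5, Trimmomatic 0.36, HISAT2 2.1.0, SAMtools 1.3.1, featureCounts and Sscrofa11.1 were used. The strand setting is not given in the sources used here, so antisense reads cannot be told apart. Reads shared by paralogs cannot be told apart from the counts either. Numbered entries (24 of 29576, 0.169% of the counts) were left out. Gene positions came from RefSeq on the same build.

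Counts were tested with edgeR 4.0.16 in R 4.3.3 (filterByExpr, TMM factors 0.896 to 1.124, quasi-likelihood F test on 4 group means, 12 residual degrees of freedom, Benjamini-Hochberg adjusted p under 0.05 over 14530 genes). SE is the log2 change divided by the root of F. The fit was tested on simulated data. Chi-square per degree of freedom over 24 pairs within groups was 9.932 to 81.86, so none of these pairs held copies. Pairs across groups were not compared. Log2 CPM used a prior count of 2.

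The 10 members, the lists, the tests and the alternatives were chosen with earlier results of these data known. All members were named. List genes were the called ones with the smallest adjusted p, up to 3 per direction and list, with at least 1 CPM in the higher group. CDH1, CDH5, COL1A1, VIM, CD3E and TNNT2 were picked after their values were seen. Genes of like pattern were the 3 non-members of at least 5 CPM with the highest correlation of deviations from group means.

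That 1 number stands for 1 animal on both surfaces is not stated in the labels. Deviations of libraries of the same sex and number correlated by 0.13 to 0.49, and for 16 of 16 the best match on the other surface had the same number, so the numbers were taken to pair them. Female and male libraries of the same number and surface correlated by -0.20 to 0.57, and what a number shares besides an animal was not tested. The main fit had no block, so its standard errors treat the 16 libraries as independent. Alternatives were RLE factors, DESeq2 1.42.0, limma-voom (limma 3.58.1), no filter, at least 1 CPM in at least 4 libraries, the block, only the libraries compared, and leaving out libraries. Figures used matplotlib 3.10.9 in Python 3.11.15.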

Additional observations from a re-analysis of the deposited data

Results flagged for a closer look

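Of 40 groups of 4 libraries (10 factors in 4 groups), 3 had a library far from the other 3, where chance flags about 1 in 20. GATA4 in male gel 2 was at 58.1 CPM, below the other male gel libraries at 84.6 to 89.5 CPM. That library also had the lowest total and the fewest genes with a count. TWIST2 in male plastic 4 was at 5.33 CPM, above the other male plastic libraries at 3.59 to 3.82 CPM. HAND2 in male plastic 1 was at 63.8 CPM, above the others at 47.9 to 50.4 CPM.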

How the results depend on the processing

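Over 50 results (10 factors in 5 comparisons) and up to 25 alternatives, 1198 of 1240 values stayed on the same side of the threshold, 32 calls were lost, 10 were gained and 0 called values reversed. Limma-voom called 3 factors in male cells (5 by edgeR), as did the fit without male gel 2 and female plastic 4. Of all tested genes, these fits called 24.5% and 28.6% in male cells. Leaving out 1 library gave 2 to 5 called factors in male and 2 to 4 in female cells, with 2859 to 3961 and 2780 to 4444 genes called over all. Without male 4, female 1 and female 4, 1968 genes were called in female cells (3476 with them), where 2 female animals were left. The replicate block called 5 factors in male and 3 in female cells, where 29.7% and 27.6% of all tested genes were called. It changed 1 member call, that of TBX20 in female cells, and added CDH5 and further endothelial markers in both sexes. It called 0 factors in the comparisons of the sexes. There the block was the number shared by both sexes, whose libraries correlated by -0.20 to 0.57. DESeq2 called 4 genes higher and 17 lower in female gel against male gel (1 and 14 by edgeR). Of 48 list gene results, 3 lost a call under some alternative, among them TCF3 in female cells without male 4, female 1 and female 4 (-0.54, adjusted p = 0.0584). Endothelial marker calls ran from 1 to 5 higher in female and from 1 to 6 in male cells. Why these counts moved was not tested. Standard errors in the surface comparisons were 0.22 to 0.28 for SNAI1, SNAI2, TWIST2, MSX1 and TCF21 and 0.20 or less for the other 5 factors.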

Other observations

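For each factor, genes whose deviations from the group means were most like its own were found among non-members of at least 5 CPM. The correlations are descriptions over 16 libraries that share depth scaling and, in pairs, an animal. For TBX20 they were MPP6 (r = 0.88), LOC100525309 (0.85) and NFIB (0.84), a nuclear factor I gene. For GATA4 they were SLC38A7, MMP23B (0.94 each) and CCNL2 (0.93), and for GATA6 BCAM (0.89), ADAMTS2 (0.88) and AGRN (0.87). BCAM is a laminin receptor and AGRN a basement membrane proteoglycan. HAND2 had TMEM62 (0.83), CYB5A and EMC9 (0.80 each).

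For TWIST1 they were ZNF330 (0.95), HSPB11 and LYL1 (0.94 each), and for TWIST2 ZNF740 (0.94), ATP6V1A (0.92) and NFATC2IP (0.90). SNAI1 had MYBBP1A, EIF2AK1 and LPIN1 (0.94 each), and SNAI2 had TADA3, GATM and CYBRD1 (0.93 each). Male gel 2, the smallest library, had the largest deviations of SNAI1 (-0.89) and GATA4 (-0.45), and these correlations were not taken again without it. MSX1 had SOX8 (0.88), a SOX factor, DGCR8 (0.87) and SNX30 (0.85), and TCF21 had HMBOX1, ARHGAP35 (0.88 each) and PLEKHA8 (0.87). Among the 45 pairs of factors, 5 had r above 0.5 and 5 below -0.5.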
